A study of Rattus norvegicus with 6 samples.

Results

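The miR-26 family is a small group of microRNAs (miRNAs), which are short RNAs that bind messenger RNAs and lower their output, and one of its members, miR-26a-5p, had the highest mean value of all miRNAs in this series. The members were chosen by name, as the annotated rows of miR-26a and miR-26b with either arm. They came to 4 of 1465 rows of the table (rno-miR-26a-5p, rno-miR-26b-5p, rno-miR-26b-3p and rno-miR-26a-3p, written without the species prefix from here on). Of all rows, 694 were annotated and 771 predicted. The family itself was picked from the measured levels, because miR-26a-5p led the table, so its level is given here as a description and not tested. Small RNA libraries came from the medial prefrontal cortex, a frontal brain area that controls mood and the stress response. In the group called CMS (chronic mild stress), 3 rats went through 8 kinds of stressor in random order for 4 weeks. They included foot shock, restraint, cold swimming, tail clipping, cage tilt, a reversed light cycle and food or water deprivation. In the Control group, 3 rats were handled and had their cages cleaned but were otherwise left alone for the same 4 weeks. The labels give neither strain, sex nor age. Each library came from 1 rat and from whole tissue, so fewer cells of a type and less RNA per cell cannot be told apart.

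A miRNA hairpin is cut into a 5p and a 3p arm, of which one, the guide, is usually kept by Argonaute proteins while the other, the passenger, is degraded. The guide recognises its targets mainly through its seed, bases 2 to 8. In vertebrates the miR-26 hairpins lie in introns of the Ctdsp genes, which encode small phosphatases that act with the repressor REST to keep neuronal genes silent outside neurons. In zebrafish, miR-26b has been described to repress ctdsp2 during neurogenesis, so that the miRNA and its host family form a loop. The transcript of Ezh2, a histone methyltransferase, is another described target of miR-26a.

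All 4 members had a sequence in the RefSeq table for the rat assembly GRCr8. They are printed with the seed in capitals, so that the shared seed of the 5p arms can be compared with the seeds of the 3p arms.
miR-26a-5p: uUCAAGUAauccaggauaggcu
miR-26b-5p: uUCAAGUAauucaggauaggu
miR-26a-3p: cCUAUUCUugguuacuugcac
miR-26b-3p: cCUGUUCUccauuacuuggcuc
Both 5p arms carry the seed UCAAGUA, and no other of the 693 mature names in that table has it. The heptamer that pairs with this seed is UACUUGA. Counted from 1 at the 5′ end and with the miR-26a base first, the 5p arms differ by C11U and C21U over 21 compared positions, outside the seed, and miR-26a-5p runs to 22 bases. The 3p arms are less alike, with 14 of 21 positions identical when set end to end without gaps, and their seeds differ from each other. Since the 5p arms differ by so few bases and no source used here states the mismatches allowed in alignment, some reads may be divided uncertainly between them.

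The hairpins are shown with both mature arms in capitals, to place the abundant 5p arm beside its scarce 3p partner.
Mir26a: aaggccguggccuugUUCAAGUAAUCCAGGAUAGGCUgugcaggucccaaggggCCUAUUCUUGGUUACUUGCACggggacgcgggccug
Mir26b: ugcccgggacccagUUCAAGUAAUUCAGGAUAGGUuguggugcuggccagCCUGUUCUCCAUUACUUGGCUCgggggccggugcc
In GRCr8, Mir26a lies at chr8:127633048-127633137 on the plus strand, within the span of Ctdspl. Mir26b lies at chr9:83425709-83425793 on the plus strand, within the span of Ctdsp1. Both host genes are on the plus strand as well. In mouse and human another hairpin, within CTDSP2, yields the same miR-26a-5p, and a row for the mature miRNA does not tell hairpins apart.

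The deposited values are normalized and rounded to whole numbers, with blank cells taken here as 0. They summed to between 709674 and 736078 per library, and the reads behind them are unknown, so no counting interval is given. Control 1 stood somewhat apart from its group. On the log2 scale it correlated at 0.987 with CMS 2 and with CMS 3, against 0.983 with Control 2 and 0.986 with Control 3, whereas Controls 2 and 3 correlated at 0.995 (across miRNAs, which are not independent replicates). Results on miR-26 are therefore also given without Control 1 where it matters. CMS 1 correlated at 0.983 with CMS 2 and at 0.988 with CMS 3, against 0.990 between CMS 2 and CMS 3. Some results are given without CMS 1 as well. Neuronal marker miRNAs (4 of 4 in the table) summed to between 90647 and 98699 in CMS libraries and between 80985 and 110572 in Control libraries. Markers of other sources were lower, such as skeletal muscle (3 of 3) at 17 to 60 in CMS and 34 to 72 in Control, liver (1 of 1) at 6 to 8 in CMS and 6 to 13 in Control, and red blood cells (3 of 3) at 255 to 438 in CMS and 171 to 340 in Control. No marker of these lists was at 0 in every library. Choroid plexus and ependymal markers (4 of 4) summed to 716 to 1278 in CMS and 686 to 1449 in Control. Oligodendrocyte markers (3 of 3) summed to 1565 to 2599 in CMS and 1495 to 1751 in Control, vascular markers (3 of 3) to 18140 to 28976 in CMS and 16998 to 21069 in Control, and leukocyte and microglial markers (4 of 4) to 337 to 499 in CMS and 442 to 476 in Control. A sum can hide members that go opposite ways. Among the neuronal markers, miR-9a-5p averaged 70120.3 in CMS and 55343.7 in Control. The mean of miR-128-3p was 21707 in CMS and 42214.7 in Control, with Control 1 at 18158. The part of these sources in the miR-26 values was not tested.

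The guide strand miR-26a-5p had values of 74325, 60544 and 58925 in CMS libraries 1 to 3, against 81740, 65111 and 66608 in Control libraries 1 to 3. The library numbered 1 was the highest in each group, and the ranges overlapped. As a share of the library total, miR-26a-5p took 10.1%, 8.53% and 8.29% in the CMS libraries and 11.1%, 9.06% and 9.20% in the Control libraries. A single miRNA thus held between 8.29% and 11.1% of each library.

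The paralogue miR-26b-5p, which has the same seed, was far lower. Its values were 2949, 2196 and 2377 in CMS libraries 1 to 3, against 2757, 2801 and 2534 in Control libraries 1 to 3. CMS 1 was the highest of all libraries and CMS 2 and CMS 3 the lowest, so the CMS range enclosed the Control range. Its share was 0.401%, 0.309% and 0.335% in CMS and 0.375%, 0.390% and 0.350% in Control.

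**Figure D1:**
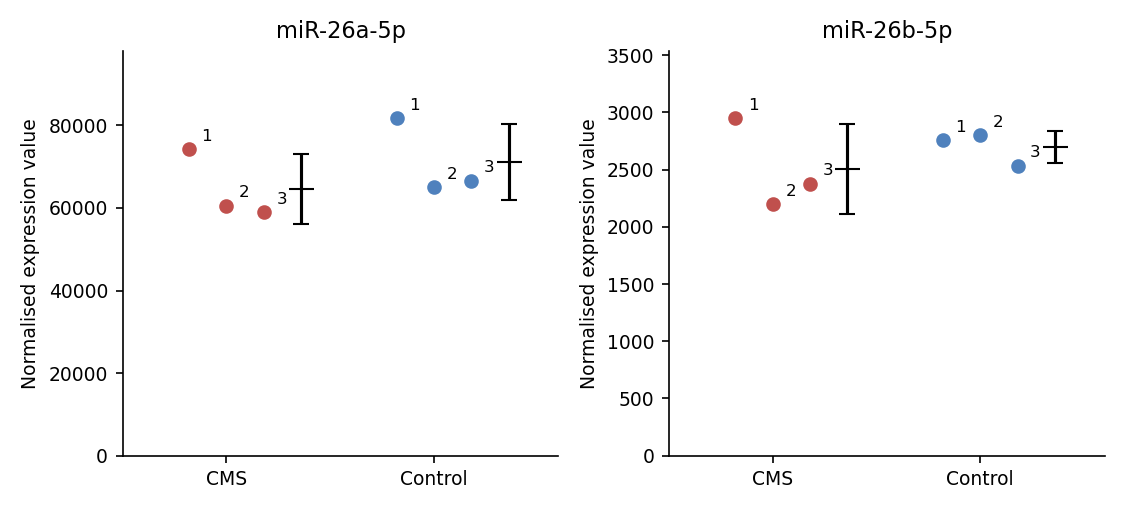
Normalised expression value of miR-26a-5p (left) and miR-26b-5p (right) in each library, with the replicate number beside each point and the group mean ± SD (n = 3) in black. CMS and Control points overlap for both miRNAs, and the library numbered 1 is the highest miR-26a-5p point in each group, at 74325 in CMS and 81740 in Control.

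The rank of miR-26a-5p was first in 4 of 6 libraries. In CMS it ranked 1 in CMS 1, 3 in CMS 2 and 2 in CMS 3, and in Control it ranked 1 in every library. The miRNA above it in CMS 2 and CMS 3 was miR-9a-5p, a regulator of neural progenitors and neurons, and in CMS 2 also miR-99a-5p. The ratio of miR-26a-5p to miR-9a-5p was 1.27, 0.789 and 0.785 in CMS libraries 1 to 3 and 1.37, 1.22 and 1.26 in Control libraries 1 to 3. CMS 1 resembled the Controls in this ratio, and the other two CMS libraries lay below 1. The ratio to miR-99a-5p was 1.22, 0.941 and 1.07 in CMS and 1.20, 1.28 and 1.30 in Control. Both ratios are described without a test, since the members were chosen for their rank.

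In order of their mean over the 6 libraries, miR-26a-5p averaged 64598 ± 8462.6 in CMS and 71153 ± 9199.1 in Control (SD, n = 3 each). Next came miR-9a-5p with 70120.3 ± 9983.1 in CMS and 55343.7 ± 3889.6 in Control. The third was miR-99a-5p with 60143 ± 4776.7 in CMS and 56774.7 ± 9934.1 in Control. In CMS, neighbours in this order differed by less than the larger of their SDs, whereas in Control the mean of miR-26a-5p was above both others by more than any of the 3 SDs. The fourth, let-7g-5p, a member of the let-7 family that rises with differentiation, averaged 36496 ± 3517.8 in CMS and 36054 ± 8022.5 in Control. It lay below miR-26a-5p in every library. The order continued with miR-128-3p, miR-29a-3p, miR-7a-5p, let-7i-5p, miR-30a-5p and let-7f-5p, with means over the 6 libraries of 31960.8, 20181.8, 18616.2, 17152.7, 16284.2 and 15543.8. The 10 miRNAs together took 46.3% to 49.9% of a library. By rank, miR-26b-5p stood at 45, 52 and 53 in CMS libraries 1 to 3 and at 44, 46 and 47 in Control libraries 1 to 3.

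**Figure D2:**
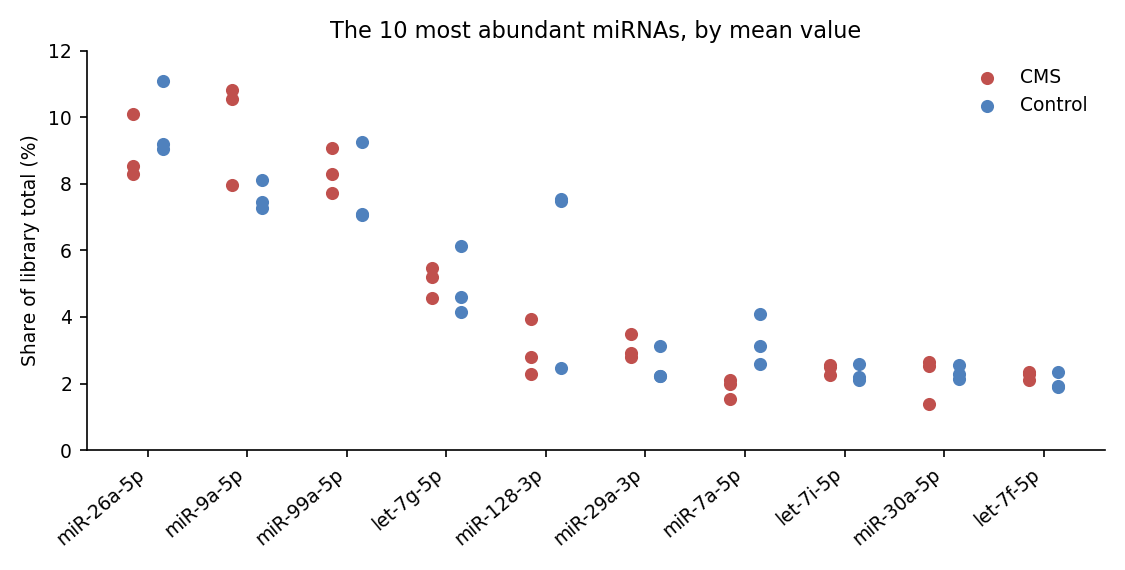
Share of the library total, in percent, for the 10 miRNAs with the highest mean value, with 1 point per library and CMS left of Control. The points of miR-26a-5p lie between 8.29% and 11.1%, those of miR-9a-5p rise above them in 2 CMS libraries, and miR-128-3p has Control 1 at 2.47% and the other 2 Controls at 7.54% and 7.50%.

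The seed UCAAGUA, counting both 5p arms, made up 10.5%, 8.84% and 8.63% of the CMS libraries and 11.5%, 9.45% and 9.55% of the Control libraries. For the seed comparison 625 annotated rows, holding 85.5% to 87.3% of a library, had a mature sequence, and miR-99a-5p was not among them. The let-7 seed GAGGUAG, carried by 9 rows, held more, with 14.0% ± 0.668 in CMS and 13.8% ± 1.87 in Control (SD, n = 3 each). Thus the let-7 total was spread over 9 rows, while that of miR-26 came almost wholly from miR-26a-5p. The part of the miR-26 5p total that came from miR-26b-5p was 3.73% ± 0.203 in CMS and 3.68% ± 0.431 in Control (SD, n = 3 each).

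The ratio of miR-26a-5p to miR-26b-5p was 25.2, 27.6 and 24.8 in CMS libraries 1 to 3 and 29.6, 23.2 and 26.3 in Control libraries 1 to 3. The CMS ratios lay inside the Control range. This ratio does not depend on how a library is scaled, and it tests whether the paralogues differ in their change. The difference of its log2, CMS minus Control, was -0.02 (two-sided exact permutation p = 0.9, with 0.1 the smallest p that 3 against 3 allows). A different change of the paralogues was not detectable with these libraries.

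Both 5p arms varied over the 6 libraries less than most abundant miRNAs did. Among 83 annotated miRNAs with a mean of at least 1000, the coefficient of variation had a median of 17.5%. It was 12.8% for miR-26a-5p, the 23rd lowest, and 10.9% for miR-26b-5p, the 16th lowest. Within groups it was 13.0% for miR-26a-5p and 11.4% for miR-26b-5p, beside a median of 12.7%.

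The 3p arms, the passengers of both hairpins, were at the bottom of the table's range. The values of miR-26a-3p were 1 in each CMS library, against 1 in Control 1 and blank cells in Controls 2 and 3. The values of miR-26b-3p were 2 in each CMS library, against 3, blank and 1 in Control libraries 1 to 3. The groups overlapped for both. A value of 1 is the smallest the table holds and stands for a range of levels, so these differences are of the size of 1 or 2 rounding steps.

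Arm use was described as log2((5p + 1)/(3p + 1)). It was 15.18, 14.89 and 14.85 in CMS libraries 1 to 3 and 15.32, 15.99 and 16.02 in Control libraries 1 to 3 for the miR-26a hairpin. For the miR-26b hairpin it was 9.94, 9.52 and 9.63 in CMS and 9.43, 11.45 and 10.31 in Control. In 241 annotated hairpins with rows for both arms and a value in either, the median size of the log2 ratio was 3.57. The 5p arm was higher in 119. In the other 122 the 3p arm was higher, except that the arms of miR-296 were equal on average. The miR-26a hairpin ranked 1 by size, with a mean of 15.37, and the miR-26b hairpin ranked 16, with 10.05. The next after miR-26a was let-7g at 13.57, followed by miR-101a at -13.23, where the 3p arm is the guide. A ratio this large needs an abundant guide, and the added 1 limits it where the passenger is blank, so the order follows the level of the guide in part.

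**Figure D3:**
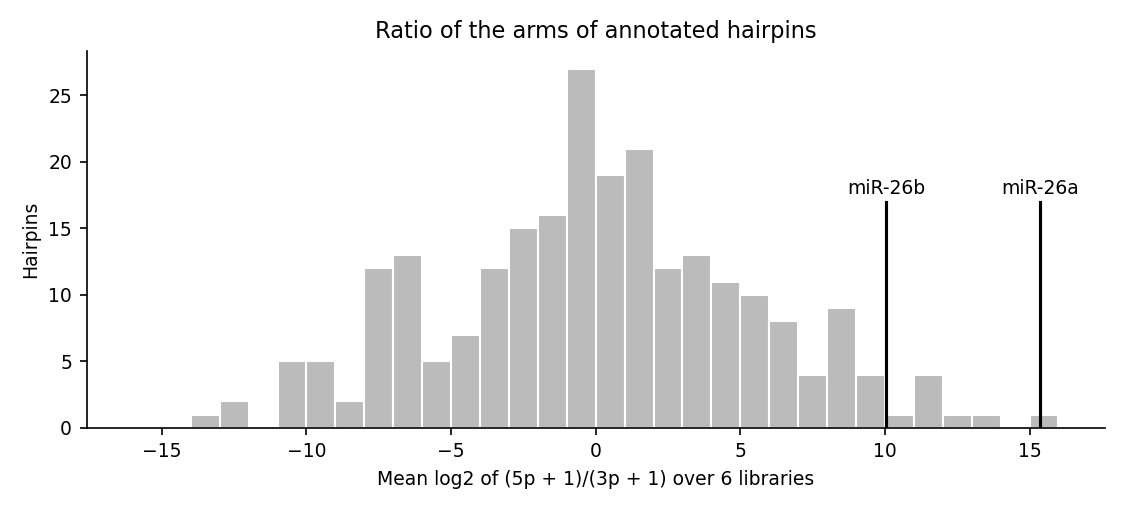
Histogram of 241 annotated hairpins by the mean over the 6 libraries of log2((5p + 1)/(3p + 1)), with positive values where the 5p arm is higher. The line for miR-26a, at 15.37, stands at the right end, beyond every other hairpin, and that for miR-26b is at 10.05.

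The comparison of CMS with Control addresses which miRNAs change in the prefrontal cortex under chronic mild stress. No miR-26 row passed the test in it. All 4 passed the filter (1 or more in 3 or more libraries), miR-26a-3p with the 3 CMS libraries and Control 1. In the limma-trend fit on log2(value + 1) over 657 miRNAs, 0 of the 4 passed a Benjamini-Hochberg adjusted p of 0.05, against 4.11% of all miRNAs tested, and 0 had an unadjusted p under 0.05, against 23.3% of all tested. The groups were free of overlap for 0 of the 4, against 25.9% of all tested.

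For miR-26a-5p the log2 difference, CMS minus Control, was -0.14 ± 0.14 (SE, limma adjusted p = 0.565). Its 95% interval, from -0.48 to 0.20, corresponds to between 0.716 and 1.15 times the Control level. Without Control 1, the highest library, the difference was -0.04 (limma adjusted p = 0.873). Without CMS 1, the highest in its group, it was -0.24 (limma adjusted p = 0.351). For miR-26b-5p it was -0.12 ± 0.13 (SE, limma adjusted p = 0.638), with an interval from -0.45 to 0.22 or 0.734 to 1.16 times the Control level. The 2 guides thus had nearly the same estimate and width.

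The passengers had positive differences with wide intervals. For miR-26b-3p the log2 difference was 0.59 ± 0.50 (SE, limma adjusted p = 0.501), with an interval from -0.64 to 1.81. For miR-26a-3p it was 0.67 ± 0.31 (SE, limma adjusted p = 0.238), with an interval from -0.09 to 1.43. The 3 CMS libraries alone were enough to bring miR-26a-3p past the filter, so its positive difference is not free of that choice. The difference of miR-26a-3p was 2.31 with a pseudocount of 0.1 and 0.09 with a pseudocount of 10. Without Control 1, miR-26a-3p passed (log2 difference 1, limma adjusted p = 0.00942). It was then at 1 in each CMS library and blank in both Controls, values that have no spread after rounding. In that fit the row reached the filter only through the 3 CMS libraries, so the filter had already picked the pattern and the call says nothing further.

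**Figure D4:**
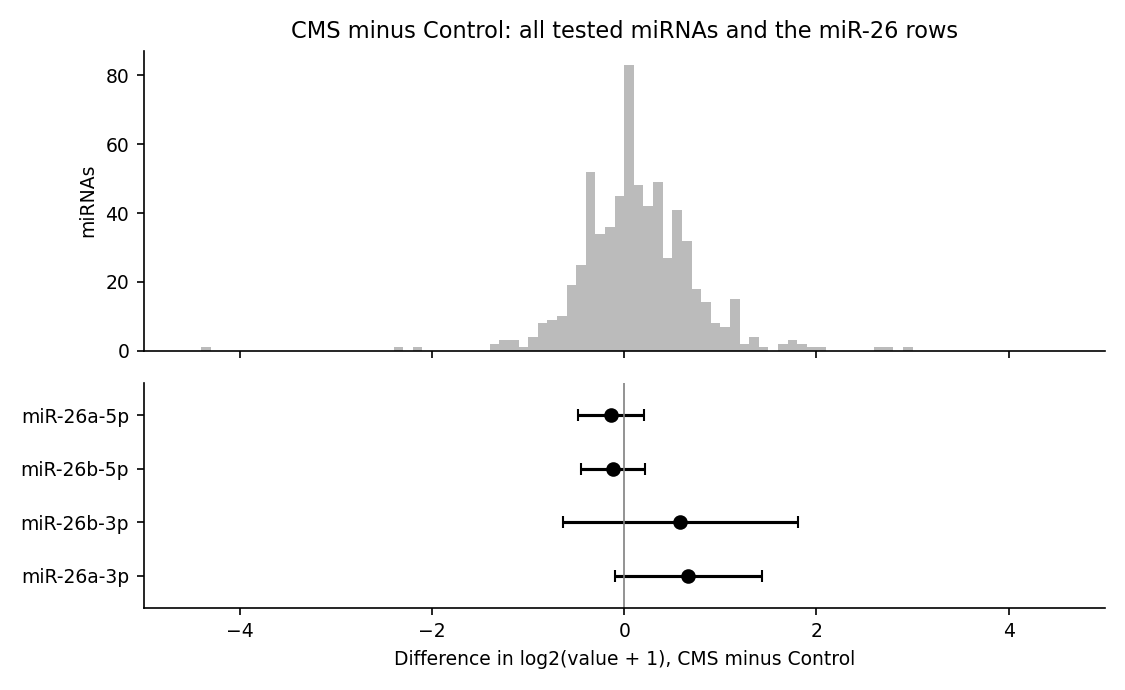
Difference in log2(value + 1), CMS minus Control, for all 657 tested miRNAs as a histogram (top) and for the 4 miR-26 rows as points with 95% limma intervals (bottom). All 4 intervals include 0, and those of the 3p rows, from -0.64 to 1.81 for miR-26b-3p, are wider than those of the 5p rows.

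The summed miR-26 rows took 9.32% ± 1.02 of the library in CMS and 10.2% ± 1.14 in Control (SD, n = 3 each). The difference of -0.837 percentage points was smaller than the SD in either group (two-sided exact permutation p = 0.5, with 0.1 the smallest possible). Over the libraries left out it ranged from -1.43 percentage points without CMS 1 to -0.177 without Control 1.

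Arm use was compared across the 144 hairpins whose arms both passed the filter, of which 10.4% passed in limma after Benjamini-Hochberg adjustment. For miR-26a the log2 ratio of 5p to 3p was 0.81 ± 0.22 lower in CMS than in Control (SE, difference -0.81, limma adjusted p = 0.0491). The groups did not overlap, a trait whose share over all hairpins was not computed. This call lies at the threshold and rests on a 3p value that is either 1 or blank. The 3 CMS libraries alone were enough to bring that arm past the filter. The filter thus favoured the pattern that was then tested, and the call is no support for a change. The call was lost in 9 of 11 alternatives, among them each fit without 1 library other than Control 1. Without Control 1 the 3p arm was listed only in CMS libraries, so that fit adds nothing. The difference was -2.45 with a pseudocount of 0.1 (limma adjusted p = 0.105) and -0.23 with a pseudocount of 10 (limma adjusted p = 0.327), so its size moved with the added constant. For miR-26b the difference was -0.70 ± 0.44 (SE, limma adjusted p = 0.278) and the groups overlapped. It was -1.70 with a pseudocount of 0.1 and -0.21 with a pseudocount of 10. Without Control 1 it was -1.18 and passed (limma adjusted p = 0.0235), and without Control 2, where the 3p arm is blank, it was -0.17 (limma adjusted p = 0.734). In the fit without Control 1 the 3 CMS libraries were again enough for the filter, so that call is no support either.

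Patterns across libraries were compared over 206 other annotated miRNAs with a mean of at least 100, by Pearson's r of log2(value + 1) over the 6 libraries, as a description. The libraries share their scaling and, in part, their group. The patterns named are the highest of 206 values of r over only 6 libraries, so they are high in part by selection. Their order was not tested. The pattern most like miR-26a-5p was that of miR-494-3p, which is encoded in the imprinted Dlk1-Dio3 locus (r = 0.942). Its values were 132, 91 and 93 in CMS libraries 1 to 3 and 141, 112 and 123 in Control libraries 1 to 3. Like miR-26a-5p it was highest in Control 1 and, within CMS, in CMS 1. After it came miR-346 (r = 0.876), let-7a-5p (r = 0.859), let-7b-5p (r = 0.828) and, as the fifth, its own paralogue miR-26b-5p (r = 0.743). Leaving out CMS 1 and Control 1, the 2 libraries farthest from the median, r was 0.963 for miR-494-3p, 0.677 for miR-346, 0.706 for let-7a-5p, 0.848 for let-7b-5p and 0.712 for miR-26b-5p over the 4 others.

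The patterns most like miR-26b-5p were those of miR-338-5p, an arm of an oligodendrocyte hairpin (r = 0.908), and miR-346 (r = 0.903). Then came miR-434-3p, also of the imprinted locus (r = 0.846), miR-494-3p (r = 0.830) and miR-486, which is abundant in red blood cells (r = 0.815). Without CMS 1 and CMS 2 these were 0.766, 0.878, 0.288, 0.676 and 0.611, so the likeness to miR-434-3p rests on those 2 libraries. Both miR-494-3p and miR-346 stood among the first 5 for either paralogue.

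Lists of miRNAs described in connection with REST, or with Ezh2 as a described target of miR-26a, were examined beside miR-26. All had been drawn up from general knowledge of the field, but with earlier results of these data known. Over all 657 miRNAs 22 rose and 5 fell, 153 (23.3%) had an unadjusted p under 0.05, and the median log2 difference was 0.08. With a minimum mean of 10, 25 of 399 miRNAs passed, and only 11 of them were among the 27 of the main fit. The calls over all miRNAs may thus include low rows, where the filter can favour a pattern as it did for miR-26a-3p.

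The REST list held 16 miRNAs described as repressed by REST or as acting on it or its cofactors, which include the Ctdsp phosphatases. Of these 0 rose and 0 fell, beside 4.11% of all tested that passed, a share too small for a list of this length to be told from 0. In the list 2 had an unadjusted p under 0.05 (beside 23.3% of all tested), and the median log2 difference was 0.01. The smallest p belonged to miR-218a-5p, enriched in motor and other neurons, with values of 6419, 10205 and 8460 in CMS and 11255, 16314 and 15575 in Control. The groups did not overlap, as for 25.9% of all tested, and the log2 difference was -0.79 ± 0.22 (SE, limma adjusted p = 0.112). For miR-9a-5p, which acts on the Rest transcript itself, the log2 difference was 0.33 ± 0.13 (SE, limma adjusted p = 0.199), and its ranges overlapped. The log2 difference of miR-137-3p, a neuronal miRNA that is also on the Ezh2 list, was -0.54 (limma adjusted p = 0.238). That of miR-124-5p, the minor arm of the neuronal miR-124 hairpin, was 0.27 (limma adjusted p = 0.245). The groups did not overlap for miR-137-3p and miR-124-5p either.

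Of 10 other miRNAs described to act on Ezh2, 0 rose and 0 fell, beside 4.11% of all tested that passed. Among them 1 had an unadjusted p under 0.05 (beside 23.3% of all tested), and the median log2 difference was 0.02. The smallest p belonged to miR-98-5p, of the let-7 seed group, with 688, 703 and 705 in CMS and 838, 772 and 935 in Control. Its groups did not overlap, as for 25.9% of all tested, and the log2 difference was -0.28 ± 0.10 (SE, limma adjusted p = 0.190). Log2 differences were 0.30 for miR-101b-3p (limma adjusted p = 0.237) and -0.17 for let-7b-5p (limma adjusted p = 0.293). The groups overlapped for miR-101b-3p but not for let-7b-5p.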

How the data were processed

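Per the labels' protocols, total RNA of 6 rats (3 CMS, 3 Control) went into miRNA libraries read on an Illumina NextSeq. Reads were aligned with Novoalign 2.07.11, per the submitters' processing notes. No source used here states the adapter trimming, genome build, miRNA annotation or normalization scale. The authors' deposited values are treated as a score, a normalized value rounded to whole numbers. They do not behave as reads: library sums differ by 3.72%, and the variance among replicates of low miRNAs (means from 1 to 8) averaged 0.53 times the mean in CMS (195 miRNAs) and 0.471 times in Control (181), where counting alone gives at least 1. Depth is therefore unknown. Between 778 and 840 rows per library were blank and taken as 0.

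Samples were grouped by title, and nothing beyond the titles shows separate batches. The test was limma-trend (limma 3.58.1, R 4.3.3) on log2(value + 1) of the deposited values, not rescaled, for rows at 1 or more in 3 or more libraries, with p adjusted over the whole table. On this scale changes of low rows are understated. Arm ratios were fitted the same way over hairpins, and single values by exact permutation over samples. The fits were tested on simulated data. Changes there were placed only in rows and arms far above the miR-26 3p values, so fits of those values were not covered. Members and lists were chosen with earlier results of these data known. Named were the miR-26 rows, the 10 highest means, the 5 most similar patterns per 5p arm, and the 4 smallest p per list. A further list is not reported here. Names, sequences and positions came from RefSeq tables of GRCr8, which is not known to be the authors' build. The row of miR-26a-3p and its arm ratio were added after the data were seen.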

Additional observations from a re-analysis of the deposited data

How the results depend on the processing

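Alternatives for the fit were quantile normalization, trimmed-mean rescaling, equal library totals, no filter, a minimum mean of 10, annotated miRNAs only, no trend, pseudocounts of 0.1 and 10, leaving out each library, and a replicate block. In these, the log2 difference stayed negative and did not pass for miR-26a-5p (-0.28 to -0.04, limma adjusted p from 0.302) and miR-26b-5p (-0.25 to -0.03, limma adjusted p from 0.273). For miR-26b-3p the log2 difference stayed positive without passing (0.08 to 1.59), and was 1.085 without Control 1 (limma adjusted p = 0.116). That of miR-26a-3p ranged from 0.09 to 2.31 and passed only without Control 1. With a minimum mean of 10 the 3p rows were not tested. Quantile normalization and trimmed-mean rescaling moved all miRNAs by a median of -0.12 and -0.13 on the log2 scale, about the size of the differences of the 5p rows. The number of miR-26 rows that passed was 0, and 0 to 1 when a library was left out. The number of all miRNAs that passed was 27, 11 with annotated miRNAs only, 1 with the replicate block and 2 to 55 when a library was left out. With a minimum mean of 10 it was 25 of 399, of which 11 were among the 27. The difference in the miR-26b arm ratio ranged from -1.18 to -0.17 over the libraries left out. That in the ratio of miR-26a-5p to miR-26b-5p ranged from -0.11 to 0.06 over them, changing sign without CMS 3 (0.0053) and without Control 1 (0.063).

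Replicate numbers are shared by the groups, and no pairing by number was seen. Deviations of same-numbered libraries correlated at -0.14, -0.06 and -0.00055, and 0 libraries correlated best with their own number. With so few libraries per group these values cannot exclude a pairing. With the replicate block the differences were unchanged, with a limma adjusted p of 0.302 for miR-26a-5p, 0.618 for miR-26b-5p and 0.0542 for the miR-26a arm ratio, which no longer passed. For the miR-26 share the block gave an exact p of 0.25, the smallest that 3 pairs allow. Depth is unknown, and for the 3p rows rounding to whole numbers limits the precision. Other sources of spread in those rows were not tested.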
